A study of Mus musculus with 2 samples.

Results

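The Dppa genes (developmental pluripotency associated) and the KH-domain genes Khdc3, Ooep and Khdc1a are used in oocytes, early embryos and embryonic stem cells. The set held 9 listed genes, namely Dppa1, Dppa2, Dppa3, Dppa4, Dppa5a, Dppa5b, Khdc3, Ooep and Khdc1a. Of these, 8 were matched by symbol among the 28839 genes of the deposited table, and 7 reached 1 FPKM (fragments per kilobase of exon, scaled to sequencing depth) in one library or both. Khdc1a was matched to no symbol and was not analysed here, nor were its relatives Khdc1b and Khdc1c. Dppa1 was below that level. The set was chosen by its symbols with FPKM values of these 2 libraries already known, above all those of Dppa5b, so the levels below are a description and not a test.

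RNA was sequenced from mESCs (mouse embryonic stem cells) of the line Sv129, grown either in control medium (FA4, folate 4 mg/L) or in folate-deficient medium (FA0, folate 0 mg/L). Folate carries the one-carbon units used in nucleotide synthesis and methylation. Both media were DMEM with fetal bovine serum and mouse leukemia inhibitory factor, a cytokine that keeps mESCs undifferentiated, and revived cells of the line were split at random between them. How long each medium was applied is not stated in the sources used here. Each condition had 1 library, so differences could not be set against a spread between replicates and were not tested.

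The FPKM were turned back into reads, which came to 19534533 in all for FA4 and 18367776 for FA0. These sums are approximate. They exceed the totals to which the FPKM appeared to be scaled, 18807215 in FA4 and 17704802 in FA0. All 14 markers of pluripotent cells on the list were above 1 FPKM in both libraries. The highest of them in FA4 was Zfp42, at 824 FPKM against 480 in FA0. Their summed FPKM was 3430 in FA4 and 2766 in FA0. Within the list, Tfcp2l1 (40.2 in FA4, 70.5 in FA0) and Nr0b1 (102, 132) were higher in FA0. So were Fgf4 (42.3, 56.2) and Tbx3 (65.7, 71.0), while the rest were lower. The other marker lists were lower in level. Neural markers summed to 45.4 FPKM in FA4 against 43.2 in FA0, almost all from Tubb3, with Pax6 and Neurog2 below 1. Trophoblast markers summed to 25.2 and 24.0, mostly from Tfap2c, with Cdx2 and Elf5 below 1. Of 7 matched markers of fibroblast feeders, 2 reached 1 FPKM. Their sums were 19.8 and 31.2, of which Vim alone gave 15.3 and 26.2, while Col1a1, Col1a2, Col3a1, Lum and Postn were near or at 0. Markers of primed epiblast summed to 22.0 and 20.3, nearly all from Otx2, and those of primitive endoderm to 7.25 and 3.94. Those of mesoderm summed to 3.03 and 4.18, mostly from Eomes (1.95, 3.21), which is also on the trophoblast list. T, Mesp1 and Mixl1 were below 1, with T and Mesp1 lower in FA0 and Mixl1 higher. The part of these differences in the values below was not tested. In bulk RNA, fewer cells that use a gene cannot be told apart from less RNA of that gene in each cell.

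Dppa2 and Dppa4 are SAP-domain proteins that form a heterodimer on chromatin and act upstream of genes of the mouse 2-cell embryo. Dppa3 (Stella, PGC7) is a maternal protein that protects DNA methylation marks in the zygote and restrains UHRF1, the factor that brings DNMT1 to replicated DNA. Dppa5a, Khdc3 (Filia), Ooep (Floped) and Khdc1a are proteins with a KH or KH-like domain, a fold that binds RNA in many proteins. Khdc3 and Ooep belong to the subcortical maternal complex of the oocyte, which early cleavage needs.

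Dppa5b was the member with the widest gap between the libraries, and its close relative Dppa5a hardly differed. GENCODE M21 annotates Dppa5a (ENSMUSG00000060461) as protein coding on the minus strand of chromosome 9, from 78367052 to 78368177 in GRCm38. Dppa5b (ENSMUSG00000110919) lies 120917 bases away on the plus strand, from 78245550 to 78246135, and is annotated as an unprocessed pseudogene. The aligned stretches of both transcripts are shown, because within them reads of the copies can be told apart only by the bases that differ. The whole Dppa5a transcript has 619 bases, and the rest of it lies outside the alignment. The stretches are bases 79 to 377 of the Dppa5a transcript and bases 1 to 297 of the Dppa5b transcript in GENCODE M21, 5′ to 3′, and capitals mark the bases that differ or are missing from the other copy.
Dppa5a: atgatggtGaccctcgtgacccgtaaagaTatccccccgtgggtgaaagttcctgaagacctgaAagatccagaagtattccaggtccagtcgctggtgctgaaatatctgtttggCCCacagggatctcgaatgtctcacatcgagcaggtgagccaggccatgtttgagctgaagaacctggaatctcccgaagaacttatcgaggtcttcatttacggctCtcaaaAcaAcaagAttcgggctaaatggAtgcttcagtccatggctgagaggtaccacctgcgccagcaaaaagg
Dppa5b: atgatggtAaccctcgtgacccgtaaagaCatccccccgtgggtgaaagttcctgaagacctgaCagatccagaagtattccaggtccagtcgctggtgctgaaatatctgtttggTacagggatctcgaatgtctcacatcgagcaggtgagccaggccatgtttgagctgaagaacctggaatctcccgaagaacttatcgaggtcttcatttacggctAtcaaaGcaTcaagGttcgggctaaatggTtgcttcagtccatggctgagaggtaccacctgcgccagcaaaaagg

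Over these 299 aligned positions the copies had 9 mismatches and a gap of 2 bases, an identity of 96.3%. From the first printed base, Dppa5a reads through 118 codons to its stop and Dppa5b through 55. The last 51 bases of the 348 of Dppa5b did not align to Dppa5a. Of all 50-base windows of Dppa5b, 19.1% occur letter for letter in Dppa5a, and of all 100-base windows 2.01%. Another copy, Dppa5c (ENSMUSG00000111423, plus strand, from 78271998 to 78272583), is also annotated as an unprocessed pseudogene. Its transcript has 348 bases and differs from that of Dppa5b at 0 of them, so reads within either transcript cannot be told apart by sequence. The sources used here do not state how reads that fit several places were counted. Dppa5c was not listed among the members, and it was added after its values were seen.

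Dppa5a was among the most abundant transcripts, at rank 6 of the 28839 genes in FA4 and again in FA0. It stood at 2357 FPKM in FA4 against 2010 in FA0, or 27443 and 22026 recovered reads. The gene was 1.17-fold lower in FA0, with a 95% counting interval of 1.15 to 1.19. All such intervals between the libraries are Clopper-Pearson intervals on recovered reads. Those for a ratio between genes within a library are normal approximations on the log scale. Both kinds hold the error of counting alone. The variation from culture to culture is not in them, nor is the assignment of reads to one or another of near-identical copies.

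Dppa5b stood at 45.7 FPKM in FA4 against 0.812 in FA0. These values come from 299 reads in FA4 and 5 in FA0. The gene was 56.3-fold lower in FA0 (95% counting interval 23.9 to 175), and it went from rank 1282 to rank 14547. Its change, log2 of FA0 over FA4 after adding 1 to each FPKM, was -4.69. That was the lowest of the 14345 genes that reached 1 FPKM in one library or both, and the gene next to it, Gm8332, had -2.68.

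Dppa5c stood at 8.40 FPKM in FA4 against 3.57 in FA0, from 55 and 22 reads. Its ratio of FA0 over FA4 was 0.425 (95% counting interval 0.247 to 0.708). The split of reads between the identical transcripts was unlike in the libraries. Dppa5b held 84.5% of their joint reads in FA4 (exact 95% interval 80.3% to 88.1%) and 18.5% in FA0 (6.30% to 38.1%). These intervals treat each read as truly belonging to its listed copy, which sequence cannot decide. The same holds for the interval of Dppa5b alone. Summed, Dppa5b and Dppa5c held 354 reads in FA4 against 27 in FA0, which is 12.3-fold lower in FA0 (95% counting interval 8.34 to 19.0). The gap between the libraries was thus smaller when the identical copies were summed, and it was still far wider than that of Dppa5a.

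**Figure D1:**
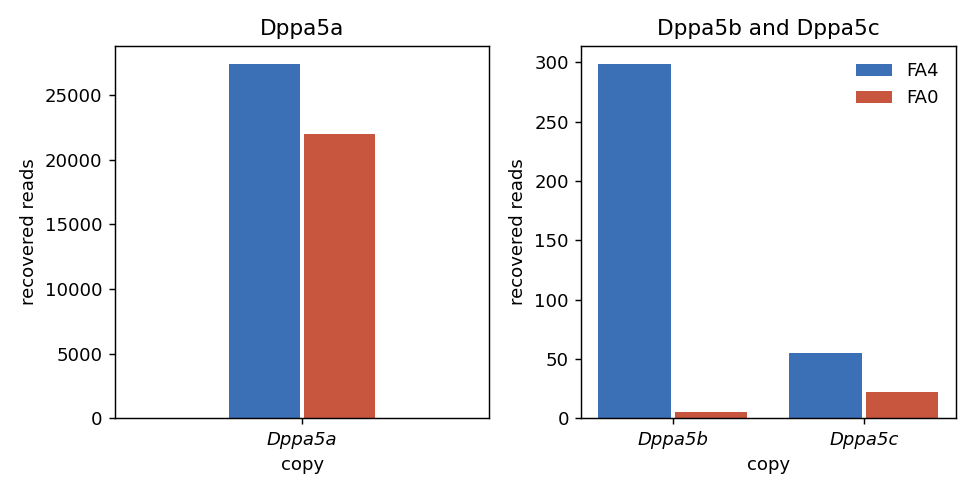
Recovered reads of Dppa5a (left) and of Dppa5b and Dppa5c (right) in the FA4 and FA0 libraries, 1 bar per library, with separate vertical axes that start at 0. Dppa5b had 299 reads in FA4 and 5 in FA0, Dppa5c 55 and 22, and Dppa5a 27443 and 22026.

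Set against Dppa5a, the copies were minor in both libraries. Their joint reads were 1.29% as many as those of Dppa5a in FA4 and 0.123% as many in FA0. Adding Dppa5b to Dppa5a therefore left the ratio of FA0 over FA4 close to that of Dppa5a alone, at 0.844 against 0.853. Other annotated transcripts also resemble Dppa5a or Dppa5b, 12 genes in all at an identity of at least 80% over at least 200 bases, Dppa5b and Dppa5c included. Of these, 7 were matched in the table. Apart from Dppa5b and Dppa5c, they held 548 reads in FA4 and 472 in FA0, nearly all of them in Pigp, a gene of GPI anchor synthesis with a stretch that is 95.9% identical to Dppa5a over 417 bases. Pigp had 537 reads in FA4 and 453 in FA0. These are reads of the whole gene, and how many of them fell in the similar stretch was not counted.

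Dppa2 (ENSMUSG00000072419, chromosome 16 from 48310477 to 48319723) was at 144 FPKM in FA4 against 111 in FA0, 1.30-fold lower in FA0 (95% counting interval 1.25 to 1.35). Dppa4 (ENSMUSG00000058550, from 48283735 to 48294292), which lies 16185 bases away on the same strand, was at 118 FPKM in FA4 against 110.0 in FA0, 1.08-fold lower (1.03 to 1.13). The partners were thus at similar levels in both libraries, and the step between the libraries was the larger for Dppa2. The ratio of Dppa2 to Dppa4 in FPKM was 1.22 (1.17 to 1.27) in FA4 and 1.01 (0.963 to 1.05) in FA0. Intervals for both genes are approximate, since their exon lengths in GENCODE M21 did not give whole reads.

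Of 7 listed genes known to act downstream of Dppa2 and Dppa4 in mESCs, 6 were matched and 4 reached 1 FPKM. Of these 4, 3 were at least 2-fold lower in FA0 and 0 at least 2-fold higher, with a median change of -1.95. Over all 14345 genes at that level, 1.32% were at least 2-fold lower and 2.99% at least 2-fold higher. The 3 were the near-identical copies Zscan4c, Zscan4d and Zscan4f, telomere-regulating genes of the 2-cell embryo whose reads may be split among copies. Zscan4d was at 6.97 FPKM in FA4 against 0.845 in FA0, and Zscan4c had 6.21 and 0.794. Syce1, a synaptonemal complex gene, had 45.8 and 24.3, a ratio of 0.532 (95% counting interval 0.482 to 0.585). Duxf3, the transcription factor gene known as Dux, stayed below an FPKM of 1, with 31 reads in FA4 and 4 in FA0. Nkx2-5, a homeobox gene of the same list, also stayed below 1, with 0.418 FPKM in FA4 against 0.481 in FA0 (ratio 1.15, 0.512 to 2.54).

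Ooep (ENSMUSG00000032346, chromosome 9 from 78376109 to 78378725) lies 7932 bases from Dppa5a on the same strand. Its level was 93.7 FPKM in FA4 against 52.9 in FA0, from 3766 and 2003 reads. Ooep was 1.77-fold lower in FA0 (95% counting interval 1.68 to 1.87), with a change of -0.81. After Dppa5b this was the lowest change among the members, and it was 311th from the lowest of the 14345 genes. Among 1135 genes with a mean FPKM of at least 50, the middle 90% of changes ran from -0.58 to 0.43, so Ooep lay below that range, while Dppa5a, Dppa2 and Dppa4 lay inside it.

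Khdc3 (ENSMUSG00000092622, chromosome 9 from 73101836 to 73104438) was the member that went the other way. Its level was 7.65 FPKM in FA4 against 16.1 in FA0, from 295 and 583 reads. The ratio of FA0 over FA4 was 2.10 (95% counting interval 1.82 to 2.42), and the change was 0.98, just under the 2-fold limit of 1. Khdc3 and Ooep encode proteins of 1 complex, and their levels drew closer in FA0. Ooep was 12.2 times Khdc3 in FPKM in FA4 (10.9 to 13.8) and 3.29 times in FA0 (3.00 to 3.61).

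Of 6 listed partners of Khdc3 and Ooep in the subcortical maternal complex, 5 were matched and 3 reached 1 FPKM. None of the 3 was 2-fold lower or higher, and their median change was 0.32. Zbed3 was at 15.4 FPKM in FA4 against 19.5 in FA0, a ratio of 1.27 (95% counting interval 1.14 to 1.41). Tle6, a co-repressor of the Groucho family, had 6.39 and 6.20 (ratio 0.971, 0.835 to 1.13), and Nlrp4f had 3.86 and 6.04 (ratio 1.57, 1.34 to 1.83). The remaining matched partners were near 0, with 6 reads in FA4 and 7 in FA0 for Padi6 and 2 and 0 for Nlrp5 (Mater).

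Dppa3 (ENSMUSG00000046323, chromosome 6 from 122626410 to 122630272) was scarce in both libraries, at 1.19 FPKM in FA4 against 1.20 in FA0. These are 20 and 19 reads, and the ratio of 1.01 had a 95% counting interval of 0.510 to 1.99. The interval spans nearly 2-fold in either direction, so smaller differences were not detectable at this depth. The 5 listed genes that act with or against Dppa3 in methylation each reached 1 FPKM, and 0 of them differed 2-fold, with a median change of 0.28. All 5 were above 0, and over all 14345 genes 44.3% were below 0. Uhrf1 was at 78.6 FPKM in FA4 against 137 in FA0 (ratio 1.74, 95% counting interval 1.69 to 1.80), and Ehmt2, which encodes the histone H3K9 methyltransferase G9a, had 14.3 and 23.0 (ratio 1.61, 1.51 to 1.72). Dnmt1, the maintenance DNA methyltransferase, had 43.1 and 47.3 (ratio 1.10, 1.06 to 1.14).

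Dppa1 (ENSMUSG00000064010, chromosome 11 from 46607772 to 46629261) was listed at 0 in FA4, and its level in FA0 was 0.108 FPKM, which is 3 reads. A count of 0 allows up to 3 reads, or an FPKM of 0.101 in FA4, so no fold is given.

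**Figure D2:**
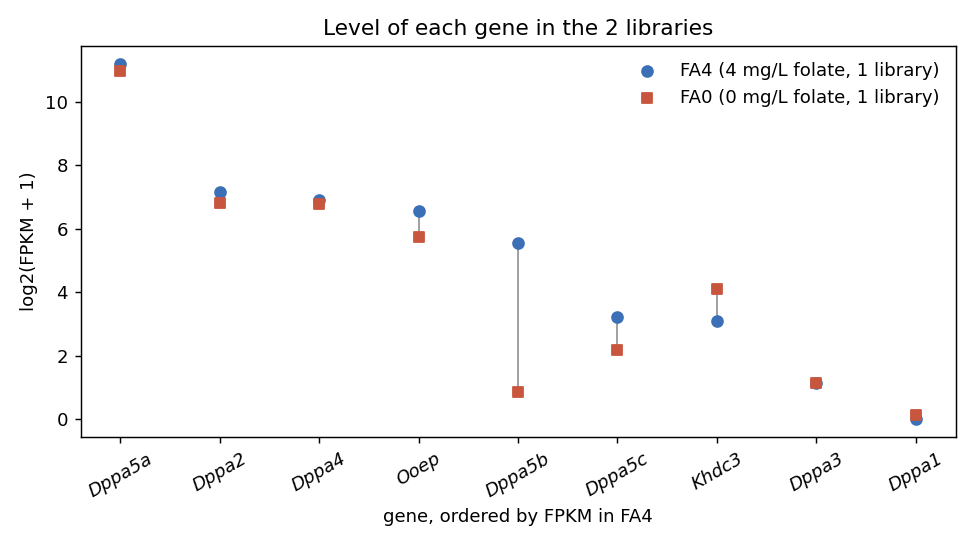
Level of each gene as log2(FPKM + 1), FA4 as circles and FA0 as squares, 1 library each, with genes ordered by their FPKM in FA4 and a line joining the libraries. The members ran from an FPKM of 2357 for Dppa5a to 0 for Dppa1 in FA4, and the longest line is that of Dppa5b, from 45.7 to 0.812.

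In FA4 the order of levels was Dppa5a, Dppa2, Dppa4, Ooep, Dppa5b, Khdc3, Dppa3 and Dppa1. In FA0 Dppa5b dropped below Khdc3 and Dppa3, and the order of the others was the same. With 1 library per condition, neighbours in this order could not be compared with a spread between cultures. By counting error alone, for example, Dppa2 and Dppa4 could not be told apart in FA0.

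**Figure D3:**
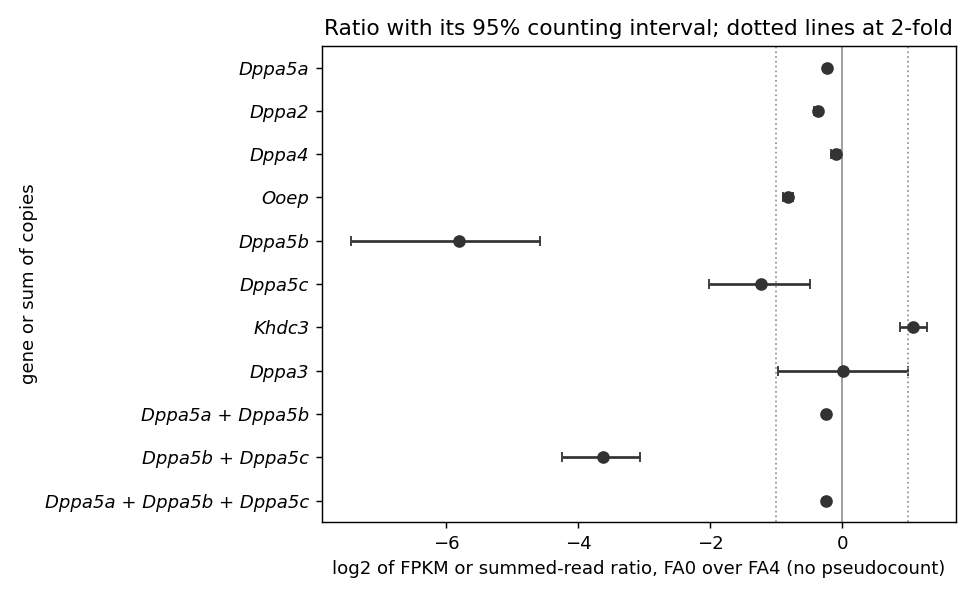
Ratio of FA0 over FA4 on a log2 axis without pseudocount, with 95% Clopper-Pearson counting intervals, for the 7 members that reached 1 FPKM, for Dppa5c and for sums of Dppa5 copies. Dppa5b (ratio 0.0178) and the sum of Dppa5b and Dppa5c (0.0810) lie far left of the dotted 2-fold line. Khdc3 (2.10) lies just beyond the right one, with an interval that spans it, and the other members lie between.

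Members were counted by the change with 1 added to each FPKM. Over the 7 that reached 1 FPKM, 1 was at least 2-fold lower in FA0 (Dppa5b) and 0 were at least 2-fold higher. The shares over all 14345 genes were 1.32% and 2.99%. Khdc3, with a change of 0.98, fell just short, while its ratio without the pseudocount was 2.10. The members' median change was -0.23, against 0.05 over all genes, and 5 of the 7 were below 0, against 44.3% of all genes. Abundant genes as a whole were lower in FA0, and 70.5% of the 1135 with a mean FPKM of at least 50 were below 0, with a median of -0.15. Apart from Dppa5b and Ooep, the members below 0 were thus within the usual range of genes at their level. The FPKM of all genes summed to 342287 in FA4 and 323539 in FA0, and this difference is part of every change and ratio given here. With TPM, which scales both sums to the same total, the median over all genes was 0.13 and the change of Dppa4 -0.02.

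**Figure D4:**
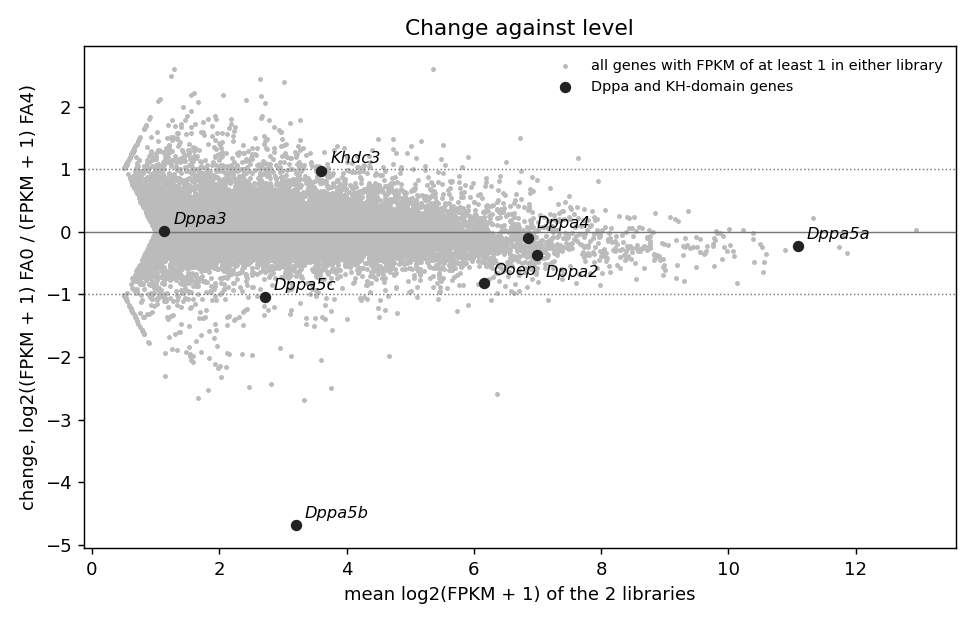
Change, log2 of FA0 over FA4 after adding 1 to each FPKM, against the mean log2(FPKM + 1) of both libraries, for 14345 genes (grey), with the 7 members and Dppa5c in black and dotted lines at 2-fold. Dppa5b at -4.69 stands below every grey point, Ooep lies at -0.81 and Khdc3 at 0.98, and Dppa5a, Dppa2, Dppa4 and Dppa3 lie between -0.37 and 0.01.

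Other transcripts known from embryonic stem cells were set beside the Dppa genes. All 7 of the list reached 1 FPKM, 0 differed 2-fold, and 6 were below 0, with a median change of -0.09. The share below 0 was 44.3% over all genes and 70.5% over the 1135 abundant ones. Nanog, a core pluripotency factor, was at 548 FPKM in FA4 against 418 in FA0 (ratio 0.763, 95% counting interval 0.748 to 0.779). Sox15 had 25.3 and 14.3 (ratio 0.565, 0.477 to 0.667). The rest below 0 differed less, with ratios of 0.937 for Eras, 0.939 for Gdf3, 0.940 for Fbxo15 and 0.974 for Dnmt3l. L1td1, an RNA-binding protein gene, was the one above 0, with 169 and 224 (ratio 1.32, 1.29 to 1.36).

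Of 23 listed oocyte genes, 18 were matched and 5 reached 1 FPKM. Of these 5, 0 differed 2-fold and 3 were above 0, with a median change of 0.14 against 0.05 over all genes. Zp3, a zona pellucida glycoprotein gene, was at 3.09 FPKM in FA4 against 5.81 in FA0, and Npm2, an oocyte nucleoplasmin, had 1.59 and 0.927.

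**Figure D5:**
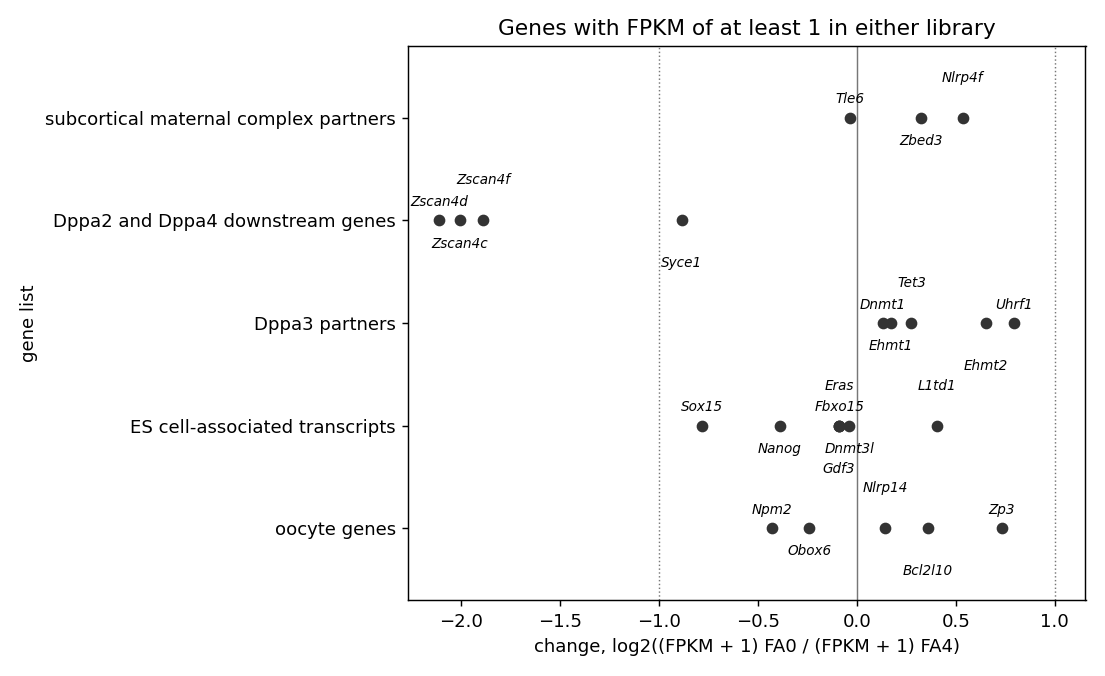
Change, log2 of FA0 over FA4 after adding 1 to each FPKM, of each gene that reached 1 FPKM in 5 lists set beside the members, 1 point per gene, with dotted lines at 2-fold. The Zscan4 copies lie near -2 and Syce1 at -0.88, the 5 Dppa3 partners lie between 0.13 and 0.80, and the other lists spread to both sides of 0.

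Within 100 kb of the members lay 41 other annotated genes of the table, of which 23 reached 1 FPKM. Of these, 3 were at least 2-fold lower in FA0, 0 were at least 2-fold higher, and 15 were below 0, beside 1.32%, 2.99% and 44.3% of all 14345 genes. The 3 were Dppa5c, Rn7sk and Slc2a3. Dppa5c has the same transcript sequence as Dppa5b, and Rn7sk, also near Dppa5b, had 30 reads in FA4 and 5 in FA0. Slc2a3, a glucose transporter gene 97537 bases from Dppa3, was at 208 FPKM in FA4 against 97.6 in FA0. Ddx43, a helicase gene 17052 bases from Ooep, had 14.0 and 9.37 (ratio 0.667, 95% counting interval 0.584 to 0.761). Rab27a, 4207 bases from Khdc3, had 5.73 and 8.75 (ratio 1.53, 1.35 to 1.73), and Rsl24d1, 8988 bases from Khdc3, had 77.3 and 65.4. The nearest genes of Khdc3 thus differed in direction.

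The genes with levels closest to each member were found by distance over the 2 log2(FPKM + 1) values, among 11957 genes. Genes with symbols that start with a number or with Gm and a number, or that end in Rik, were left out. Nearest to Ooep were Supt4a, at 88.6 FPKM in FA4 against 49.3 in FA0, and Gabarapl2, with 97.4 and 57.4. Dppa4 was closest to Mcm7 (119 and 111), and Khdc3 to Dact2 (7.29 and 15.9). None of the genes searched came near Dppa5b: the closest, Meioc, had 16.3 and 3.38, at a distance of 1.92, against 0.13 for Ooep and Supt4a. With 2 libraries such likeness describes levels only.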

How the data were processed

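The authors aligned reads of the 2 libraries to mm10 and deposited FPKM per gene. The submitters' notes list HISAT2 (version 2.1.0), StringTie (version 1.3.3b) and DESeq (version 1.28.0). The methods also mention Tophat and limma. The sources used here do not state how strand and reads with several matches were treated.

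From the deposited FPKM, the change was calculated as log2((FPKM + 1) in FA0 / (FPKM + 1) in FA4) where the FPKM reached 1 in one library or both. A change of 1 or more in size counted as 2-fold. The pseudocount of 1 understates the change of low genes, so ratios are given without it. Reads were recovered from FPKM and GENCODE M21 exon length (GRCm38), and 97.9% (FA4) and 98.1% (FA0) of values up to 20 reads fell within 0.05 of a whole number. No count test was run, since each condition had 1 library.

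Transcripts were compared with BLAST 2.17.0 and Biopython 1.88. Python 3.11.15, pandas 2.3.3, numpy 2.4.6 and scipy 1.17.1 were used, and the scripts were tested on simulated data. Named were all members, all genes of lists of 10 or fewer and the 4 largest changes of longer lists, of which those that matter are printed, the nearest genes by level and the genes within 100 kb. Genes outside this rule were chosen after their values were seen. Members, lists and the rule were chosen with earlier results of these data known. Alternatives were pseudocounts of 0.1 and 0.5, no minimum, a minimum of 5, TPM and rescaling by the median ratio.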

Additional observations from a re-analysis of the deposited data

How the results depend on the processing

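No result changed direction under any alternative run. Khdc3 sat at the limit: with a pseudocount of 0.1 or 0.5, with TPM, and with the ratio without pseudocount (chosen after seeing the data), 1 member instead of 0 was at least 2-fold higher in FA0, as the change of Khdc3, 0.98 before, became 1.02 to 1.12. The members' median change of -0.23 became -0.15 with TPM, -0.17 without a minimum and -0.30 with a minimum FPKM of 5. Dppa5a and Dppa5b together changed by -0.25, and by -0.16 with TPM. Of the alternatives added after seeing the data, summing Dppa5b with Dppa5c gave -3.36 in place of -4.69, and leaving out Dppa5b gave 0 members at least 2-fold lower and a median of -0.17. Over its alternatives Dppa5b ran from -5.81 to -3.36, Ooep from -0.82 to -0.74, Dppa2 from -0.38 to -0.29 and Dppa4 from -0.10 to -0.02. Genes at least 2-fold lower and higher, 190 and 429, became 409 and 951 with a pseudocount of 0.1, 279 and 659 with 0.5, 288 and 883 with TPM, 446 and 1049 with the ratio, and 80 and 195 with a minimum of 5. No paired analysis was possible because each condition had 1 library, and no replicate could be left out. Depth limits Dppa1, Dppa3 and Dppa5b in FA0, which rest on 3, 19 and 5 reads.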
